A study of Saccharomyces cerevisiae with 12 samples.

Results

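The aminoacyl-tRNA synthetases of Saccharomyces cerevisiae were followed through chemostat cultures of a reference strain and of a strain that lacks LEU3. Members were taken by gene symbol from the probe set annotation, with each gene represented by a probe set that carries its symbol alone. All 31 synthetase genes sought were found among 5656 genes, each with 1 such probe set, and all 31 passed the filter on low values. Of these, 18 encode cytosolic enzymes and 13 encode enzymes imported into mitochondria. ALA1, GRS1, HTS1 and VAS1, counted here as cytosolic, each make the enzyme for both compartments from a single gene.

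An aminoacyl-tRNA synthetase joins 1 amino acid to its transfer RNA and so sets which residue is built in at a codon. Yeast keeps separate nuclear genes for most cytosolic and mitochondrial synthetases, because the mitochondrion translates its own few messages with its own transfer RNAs. Leu3 is the transcription factor of leucine, isoleucine and valine synthesis and responds to an intermediate of the leucine pathway. CDC60 and NAM2 encode the cytosolic and mitochondrial leucine enzymes, ILS1 and ISM1 those of isoleucine, and VAS1 the valine enzyme of both compartments. NAM2 also takes part in the splicing of mitochondrial introns.

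RNA from these cultures had been hybridised to 12 Affymetrix arrays, 3 for each of 4 groups. The deletion strain CEN.PK540-3A (MATa, leu3 replaced by the loxP-Kan-loxP marker) was set against CEN.PK113-7D (MATa, LEU3), and both are haploid and prototrophic, so neither needs an added amino acid. Cultures of all groups ran at 30 °C, pH 5.0 and a dilution rate of 0.10 per h. Carbon-limited cultures received ethanol at 6.0 g/l with ammonium sulfate at 5.0 g/l, and nitrogen-limited cultures received ammonium sulfate at 1.0 g/l with glucose in excess (59 g/l fed to the reference and 53 g/l to the deletion strain, 17 g/l left over). The limiting nutrient and the carbon source therefore change together and their effects cannot be told apart.

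LEU3 read 103 ± 7.14 (SD, n = 3) and 66.3 ± 9.06 in nitrogen- and carbon-limited reference cultures and at most 0.6 on every deletion array, at least 8.54- and 5.49-fold lower (adjusted p 4.4e-10 and 5.12e-08). The MATa genes MFA2, STE2 and BAR1 were above the background floor of 12 intensity units on all arrays. MF(ALPHA)2 of the other mating type stayed at 10.6 or below and STE3 at 36.4 or below, while MF(ALPHA)1 averaged 305.5 in nitrogen-limited reference cultures against 21.8 to 37.6 in the other groups. Carbon-limited reference arrays 2 and 3 stood apart, with actin 3' to 5' signal ratios of 9.27 and 14.0 against 1.54 to 3.31 on the other 10 arrays, a sign of less intact RNA. On nitrogen-limited reference arrays 2 and 3 a control probe set read 3095 and 2748 where no other array exceeded 1.6. Synthetase medians of the strain comparisons and of the limitation comparison in the reference are given with and without these arrays, as are many calls. Counts by overlap of arrays, by structural class and over all contrasts, and the medians by group, use all arrays. All values share 1 scale on which each array has the same trimmed mean, so a level is a share of the RNA measured, and RNA per cell was not measured. Centring the arrays on the median instead moved the median change of all genes from -0.11 to 0.04 for the strain effect under nitrogen limitation, from 0.05 to -0.12 under carbon limitation, from 0.19 to -0.07 for the limitation effect in the reference and from 0.02 to 0.06 in the deletion strain, all in log2 units.

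Cytosolic and mitochondrial synthetases took different courses over the groups. On a scale where each gene is set to its own mean over the 12 arrays, the median cytosolic member lay at log2 0.09 ± 0.01 (SD, n = 3) in nitrogen-limited reference cultures and 0.21 ± 0.08 in nitrogen-limited deletion cultures, against -0.19 ± 0.27 and -0.16 ± 0.06 under carbon limitation. The median mitochondrial member lay at -0.12 ± 0.05 and 0.06 ± 0.10 under nitrogen limitation and at -0.02 ± 0.03 and 0.20 ± 0.04 under carbon limitation, again reference first. The cytosolic median was thus lower under carbon limitation in the deletion strain, and the mitochondrial median was highest in carbon-limited deletion cultures. The 3 carbon-limited reference arrays spread widely in their cytosolic median, at 0.09, -0.19 and -0.46, and the 2 low values belong to the arrays with high actin ratios. Array 1 lay at the level of the nitrogen-limited reference arrays, so the lower mean of that group rests on arrays 2 and 3. Within that group the median cytosolic gene had a log2 SD of 0.35, against 0.12 to 0.15 in the other groups, while the mitochondrial median SD there was 0.11. Over all genes the median SD was 0.25 there, against 0.15 to 0.18 in the other groups. The part of RNA quality in that spread was not tested.

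**Figure D1:**
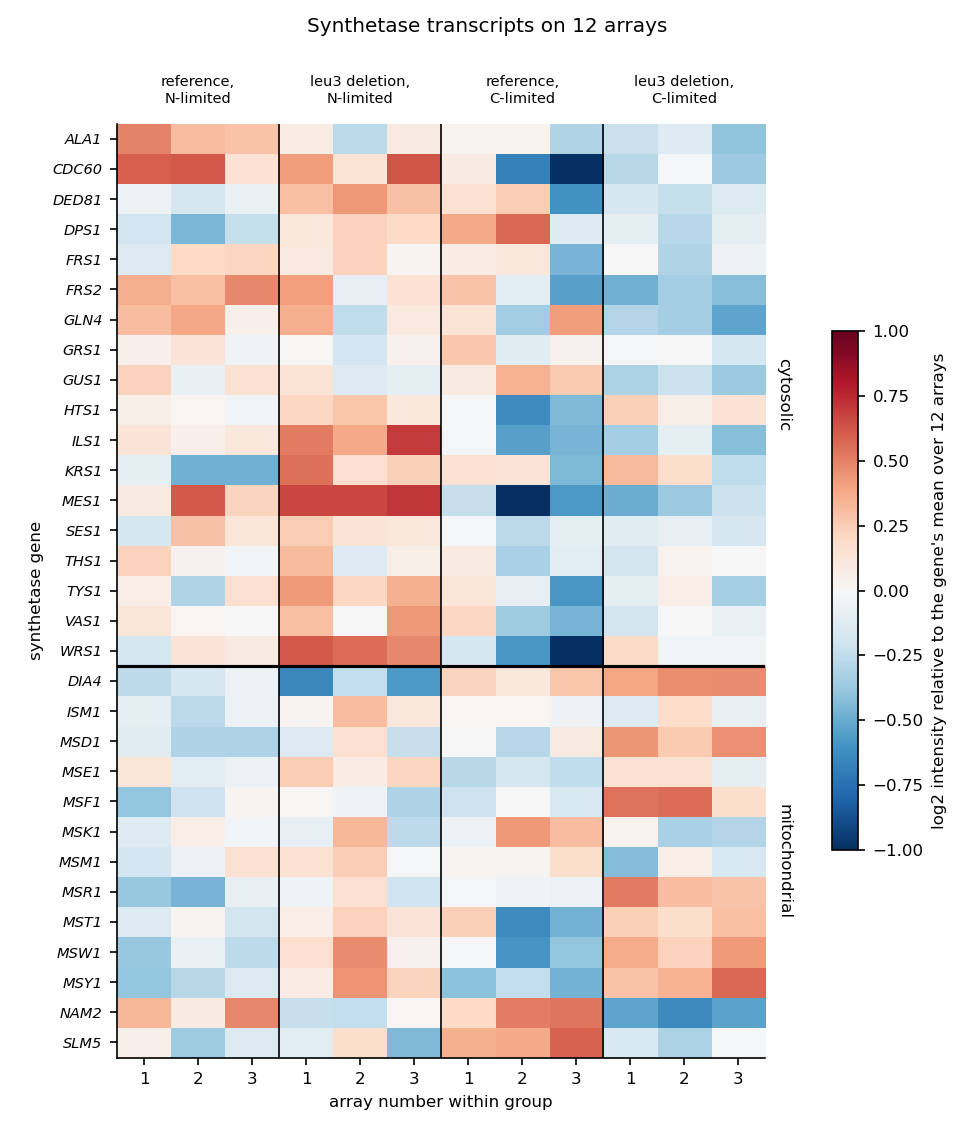
Colour shows the log2 intensity of each of the 31 synthetase genes (vertical axis) on each of the 12 arrays (horizontal axis, by group and array number) relative to the gene's mean over all arrays, with the colour scale ending at 1 in either direction. Cytosolic members are mostly high in nitrogen-limited deletion cultures, and carbon-limited reference arrays 2 and 3 are low for many of them.

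Nitrogen limitation was first set against carbon limitation within the deletion strain, where the actin ratio stayed between 1.54 and 1.91 on all 6 arrays. Every one of the 18 cytosolic members had a positive log2 change (nitrogen-limited minus carbon-limited), with a median of 0.33, whereas the 13 mitochondrial members divided into 6 positive and 7 negative with a median of -0.10. Over all 5321 genes tested, 51.9% were positive and the median was 0.02. MES1, ILS1, FRS2 and DED81 rose among the cytosolic enzymes and none fell. Among the mitochondrial enzymes NAM2 rose, and DIA4, MSF1, MSD1 and MSR1 fell.

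At an adjusted p under 0.05, 35.8% of all genes passed in this comparison, 18.1% higher and 17.8% lower. The 4 of 18 cytosolic members (22.2%) that rose are close to the share of all genes that rose, and none fell. This count depends on the spread within all 4 groups, which the fit shares. With centred arrays 6 cytosolic members rose and none fell, beside 1075 higher and 863 lower of 5321 genes. Array weights gave 13 cytosolic members that passed, beside 1416 higher and 1372 lower. Of the mitochondrial members, 5 of 13 passed (38.5%), 1 higher (7.69%) and 4 lower (30.8%). By overlap of the arrays, 13 cytosolic members had all 3 nitrogen-limited values above all 3 carbon-limited values, where 27.8% of all genes did, and none had the reverse, where 26.2% of all genes did. The 5 cytosolic members whose groups overlapped were ALA1, GRS1, HTS1, KRS1 and THS1. The 4 genes counted here as serving both compartments had a median change of 0.13 with none past the threshold, and the 14 other cytosolic members one of 0.45.

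MES1, the methionine enzyme, which also charges the initiator transfer RNA, read 823.4, 826.7 and 851.4 in nitrogen-limited deletion cultures and 367.4, 401.1 and 446.7 under carbon limitation. The groups lay far apart, a 2.06-fold rise (log2 1.05 ± 0.20, SE; adjusted p 0.000641). ILS1, the isoleucine enzyme, read 363.8, 328.9 and 411.2 against 200.1, 236.3 and 188.2. Its groups did not overlap either, with a 1.77-fold rise (log2 0.82 ± 0.16, adjusted p 0.000944). FRS2, which encodes a subunit of the cytosolic phenylalanine enzyme, rose by log2 0.58 ± 0.19 (adjusted p 0.0264), from 111.8, 123.6 and 116.2 to 207.7, 148.0 and 173.0. FRS1, the gene of the partner subunit, changed less on this scale, at 0.24 with a 95% interval of -0.13 to 0.61. DED81, the asparagine enzyme, read 689.2, 756.8 and 686.1 against 497.9, 474.8 and 508.6, a rise of 0.52 ± 0.19 with an adjusted p of 0.0383 and no overlap.

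DIA4, the mitochondrial serine enzyme, went the other way. It read 24.5, 32.4 and 25.8 under nitrogen limitation and 50.5, 53.0 and 53.4 under carbon limitation. This was the largest change of a mitochondrial member, 1.91-fold lower (log2 -0.93 ± 0.14, adjusted p 8.84e-05), with no overlap. MSF1, the mitochondrial phenylalanine enzyme, read 29.2, 28.2 and 23.3 against 42, 42.6 and 32.6 and fell by log2 0.53 ± 0.16 (adjusted p 0.0172). MSD1, the mitochondrial aspartate enzyme, read 126.7, 156.6 and 119.3 against 190.8, 168.5 and 192.9, a log2 change of -0.46 ± 0.15 (adjusted p 0.0264). For MSR1, the mitochondrial arginine enzyme, the change was -0.40 ± 0.15 (adjusted p 0.0482). Nitrogen-limited arrays lay below all carbon-limited arrays for MSF1, MSD1 and MSR1 as well.

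MES1, ILS1 and DIA4 kept their calls under all 23 alternatives. Leaving out single arrays ended the others: DED81 without any one of the 6 arrays (0.48 to 0.55), FRS2 and MSD1 without nitrogen- or carbon-limited arrays 1 or 3 (0.45 to 0.58, and -0.44 to -0.38), MSF1 without nitrogen-limited array 3 or carbon-limited arrays 1 or 2 (-0.48 to -0.44), and MSR1 without any array of the strain but nitrogen-limited array 2, or without nitrogen-limited reference array 1 or carbon-limited reference array 2 (-0.44 to -0.31).

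**Figure D2:**
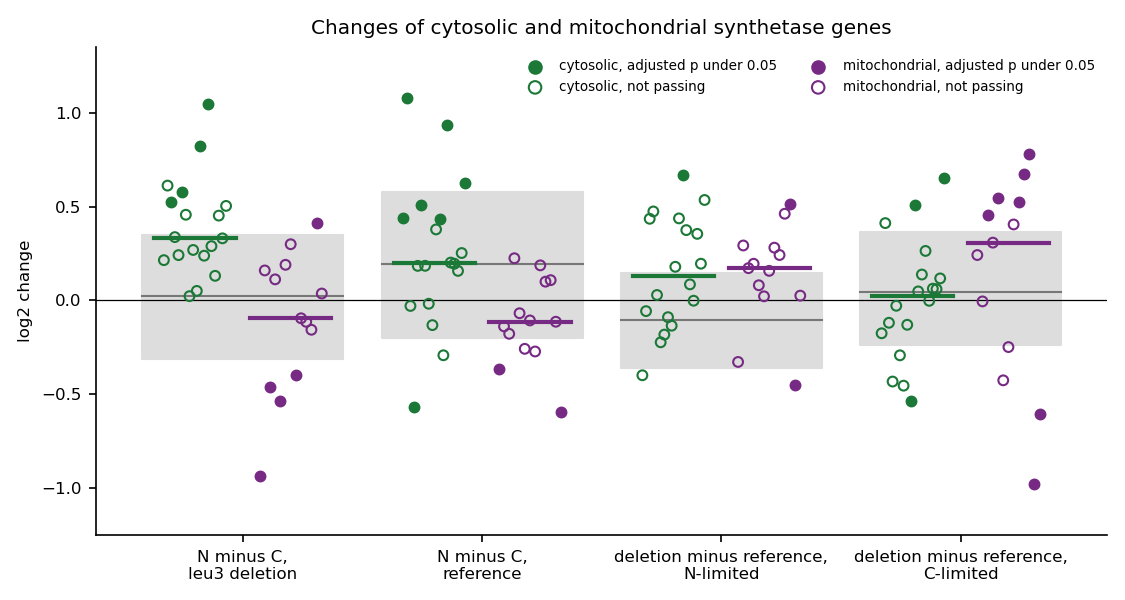
Points give the log2 change of each synthetase in the strain and limitation comparisons, cytosolic and mitochondrial genes apart, with filled points for an adjusted p under 0.05, coloured bars for the list medians, and a grey line and box for the median and the middle quartiles of all genes tested. In the deletion strain all 18 cytosolic members lie above 0 for nitrogen minus carbon limitation, and the mitochondrial members lie on both sides of it.

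Each cytosolic enzyme was also paired with the mitochondrial enzyme of the same amino acid. The log2 ratio of both genes is formed within an array, so a single scale factor per array cancels. Scaling that varies with intensity does not cancel, and the median member averaged 412.8 in the cytosolic and 49.6 in the mitochondrial list. There were 14 such pairs, with FRS1 and FRS2 both set against MSF1 and YDR341C, the cytosolic arginine enzyme, added as partner of MSR1. From carbon to nitrogen limitation the cytosolic gene of the deletion strain moved upward relative to its mitochondrial partner in all 14 pairs, by a median of log2 0.63. In 10 of the pairs the within-array ratios of the groups did not overlap. How often the ratios of other gene pairs separate was not computed. Of all single genes, 27.8% were wholly higher and 26.2% wholly lower in this comparison. The serine pair SES1 and DIA4 separated most, by 1.22 ± 0.16 (SE, 3 arrays against 3), followed by FRS2 and MSF1 at 1.11 ± 0.20. The aspartate pair DPS1 and MSD1 parted by 0.80 ± 0.10 and the methionine pair MES1 and MSM1 by 0.75 ± 0.15. The 4 pairs whose ratios overlapped were those of leucine (0.20 ± 0.16), glutamate (0.16 ± 0.08), threonine (0.23 ± 0.20) and lysine (0.05 ± 0.28). These differences of ratios are given with their errors, and no test was made of them.

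**Figure D3:**
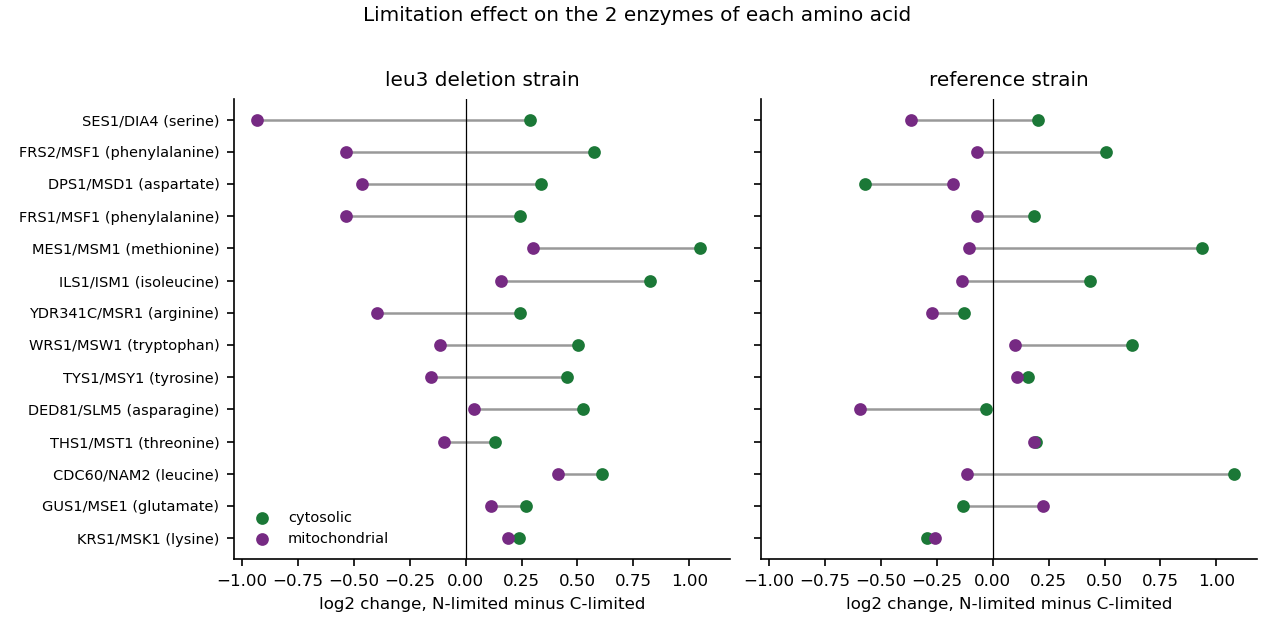
For each amino acid with separate cytosolic and mitochondrial enzymes, points give the log2 change of both genes from carbon to nitrogen limitation in the deletion strain and in the reference. The cytosolic change is the greater one in all 14 pairs of the deletion strain and in 11 of 14 in the reference.

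The same limitation comparison in the reference strain uses the arrays that stood apart. CDC60, MES1, WRS1, FRS2, ALA1 and ILS1 rose under nitrogen limitation among the cytosolic members and DPS1, the aspartate enzyme, fell. DIA4 and SLM5, the mitochondrial serine and asparagine enzymes, fell, and no mitochondrial member rose. The cytosolic median change was 0.20, beside 0.19 over all genes, and the mitochondrial median was -0.11; with centred arrays they were -0.07, -0.07 and -0.38. Without carbon-limited arrays 2 and 3 the cytosolic median was 0.02, that of all genes 0.13 and the mitochondrial median -0.16, and without nitrogen-limited arrays 2 and 3 they were 0.29, 0.20 and -0.09. Of all genes 47.6% passed, 32.6% higher and 14.9% lower, so the 6 of 18 cytosolic members that rose (33.3%) are as frequent as rising genes in general, while none of 13 mitochondrial members rose. By overlap of the arrays, 5 cytosolic members were wholly higher and 1 wholly lower and 1 mitochondrial member was wholly higher and 4 wholly lower, beside 34% and 16.4% of all genes. With arrays centred on the median the cytosolic counts became 2 higher and 3 lower, and the mitochondrial counts 0 higher and 6 lower. Over all 5321 genes the centred counts were 951 higher and 1370 lower.

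MES1 read 552.1, 796.0 and 605.3 under nitrogen limitation and 442.2, 246.1 and 349.7 under carbon limitation, without overlap (log2 0.94 ± 0.20, adjusted p 0.00125). Against carbon-limited array 1 alone its change was 0.54 with an adjusted p of 0.0679. WRS1, the tryptophan enzyme, read 369.8, 455.8 and 444.7 against 371.9, 279.6 and 197.4, where the groups overlapped through carbon-limited array 1. Its change of 0.62 ± 0.19 (adjusted p 0.0145) became 0.18 without carbon-limited arrays 2 and 3, and 0.39 without array 3 alone, when it no longer passed. DPS1 read 720.5, 596.7 and 697.0 against 1066.1, 1224.0 and 750.0, lower on every nitrogen-limited array (-0.57 ± 0.17, adjusted p 0.0125). Its call ended without nitrogen-limited array 2 (-0.49) or carbon-limited array 2 (-0.42).

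DIA4 read 32.1, 34.2 and 36.9 against 44.7, 41.6 and 46.5, a fall in the direction seen in the deletion strain with a smaller log2 change of -0.36 ± 0.14 (adjusted p 0.0427). The difference between the strains, -0.57 ± 0.20, did not pass the interaction test (adjusted p 0.057). SLM5 read 49.2, 37.1 and 43.0 against 60.7, 62.0 and 71.6, a change of -0.59 ± 0.17 (adjusted p 0.0103) without overlap. The change of SLM5 in the deletion strain was 0.04 with a 95% interval of -0.33 to 0.40, and the difference between the strains had an adjusted p of 0.0816.

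Without carbon-limited reference arrays 2 and 3 the lone array of that group is assumed to vary like the other groups. Calls were then lost over all genes, so member calls are not counted there. Single arrays mattered too: FRS2 and ILS1 lost their calls without any nitrogen-limited reference array or without carbon-limited reference array 2 or 3 (0.30 to 0.55 and 0.33 to 0.46), ILS1 also without nitrogen-limited deletion array 1 (0.43), ALA1 without nitrogen-limited array 1 (0.37) or carbon-limited array 3 (0.33), and DIA4 without any of 10 different arrays (-0.42 to -0.32). In the pairs, 11 of 14 had the greater change in the cytosolic gene (median difference 0.39), which became 9 of 14 (median 0.17) without carbon-limited arrays 2 and 3 and 12 of 14 without nitrogen-limited arrays 2 and 3. This comparison shares its arrays with both strain comparisons.

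The cytosolic leucine enzyme passed in 1 limitation comparison and in neither strain comparison, whereas the mitochondrial one passed in both strain comparisons. CDC60 read 252.4, 255.6 and 185.0 in nitrogen-limited reference cultures, 223.0, 183.9 and 258.4 in nitrogen-limited deletion cultures, 176.8, 104.8 and 68.1 in carbon-limited reference cultures and 137.6, 166.2 and 129.9 in carbon-limited deletion cultures. Nitrogen-limited arrays were above carbon-limited arrays in both strains, and the strains overlapped under either limitation. In the reference CDC60 rose 2.11-fold under nitrogen limitation (log2 1.08 ± 0.27, adjusted p 0.00377). That value fell to 0.37 (adjusted p 0.269) without carbon-limited arrays 2 and 3. In the deletion strain the change was 0.61 (95% interval 0.05 to 1.18) and missed the threshold with an adjusted p of 0.0856. That change passed under 5 of the 23 alternatives, among them array weights, the actin covariate and leaving out carbon-limited reference array 1 or 3.

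Between strains CDC60 differed by -0.06 under nitrogen limitation (95% interval -0.62 to 0.51) and by 0.41 under carbon limitation (-0.15 to 0.98, adjusted p 0.261). The carbon-limited value passed once reference array 1, the highest of its group, was left out (0.77, adjusted p 0.0142). These intervals are wide because the carbon-limited reference arrays of CDC60 had a log2 SD of 0.69.

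NAM2, the mitochondrial leucine enzyme, was the member with the largest strain difference and 1 of 2 that passed under both limitations. It read 41.1, 51.0 and 52.0 in carbon-limited reference cultures and 24.9, 23.1 and 24.8 in carbon-limited deletion cultures. The deletion arrays were all lower, 1.97-fold on average (log2 -0.98 ± 0.15, adjusted p 0.000507). The change still passed without carbon-limited reference arrays 2 and 3 but not with the actin ratio as a covariate, when it was -0.57 (adjusted p 0.327). Under nitrogen limitation it read 45.2, 38.0 and 50.1 in the reference and 30.5, 30.3 and 36.4 in the deletion strain, again with every deletion array lower (-0.45 ± 0.15, adjusted p 0.0436).

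The nitrogen-limited NAM2 call was the less firm of the pair: centring the arrays gave -0.31 (adjusted p 0.197), and leaving out reference array 1 or 3, deletion array 1 or 2, or any carbon-limited deletion array ended it (-0.45 to -0.36). It was lost under 13 of the 23 alternatives in all, at sizes down to -0.26, among them leaving out nitrogen-limited reference arrays 2 and 3 (-0.49, adjusted p 0.14), the actin covariate (-0.33) and the replicate block (-0.45, adjusted p 0.0519). The difference between the limitations, 0.53 ± 0.21, did not pass (adjusted p 0.098). Within the deletion strain NAM2 was higher under nitrogen limitation (0.41 ± 0.15, adjusted p 0.045), a call that ended without any 1 of its 6 arrays or without nitrogen-limited reference array 1 (0.33 to 0.46). In the reference its limitation effect was -0.11 (95% interval -0.44 to 0.21). The ratio of CDC60 to NAM2 within arrays was higher in the deletion strain under carbon limitation by log2 1.39 ± 0.52 (SE), and by 0.46 without reference arrays 2 and 3.

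The isoleucine and valine enzymes gave no strain difference past the threshold. ILS1 read 276.7, 262.3 and 273.3 in nitrogen-limited reference cultures, below all 3 deletion values of 363.8, 328.9 and 411.2. That difference of 0.44 ± 0.16 had an adjusted p of 0.0653 as scaled by the authors, and of 0.0186 at a size of 0.58 with arrays centred on the median. Under carbon limitation the reference arrays read 251.3, 174.2 and 184.0 and the deletion arrays 200.1, 236.3 and 188.2, overlapping, with a difference of 0.05 (95% interval -0.30 to 0.39). The rise of ILS1 under nitrogen limitation in the reference was 0.43 ± 0.16 (adjusted p 0.0373), and 0.11 without carbon-limited arrays 2 and 3.

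ISM1 read 46.3, 41.0 and 47.3 in nitrogen-limited reference, 50.4, 61.3 and 53.4 in nitrogen-limited deletion, 50.1, 50.1 and 47.7 in carbon-limited reference and 44.9, 56.1 and 47.0 in carbon-limited deletion cultures. As scaled by the authors it passed in none of the comparisons, although under nitrogen limitation all deletion arrays were above all reference arrays (0.29, adjusted p 0.151). With centred arrays ISM1 passed for that strain difference (0.43, adjusted p 0.0357), for the interaction (0.60, adjusted p 0.0425) and, lower under nitrogen limitation, in the reference (-0.40, adjusted p 0.0246), and it did so with quantile normalization too. VAS1 read 336.0, 312.6 and 309.4, then 379.5, 307.8 and 417.7, then 355.6, 241.2 and 224.2, then 271.1, 307.1 and 294.7 over the same groups. Reference and deletion arrays overlapped under both limitations, and its changes of 0.12 to 0.33 passed in no comparison.

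**Figure D4:**
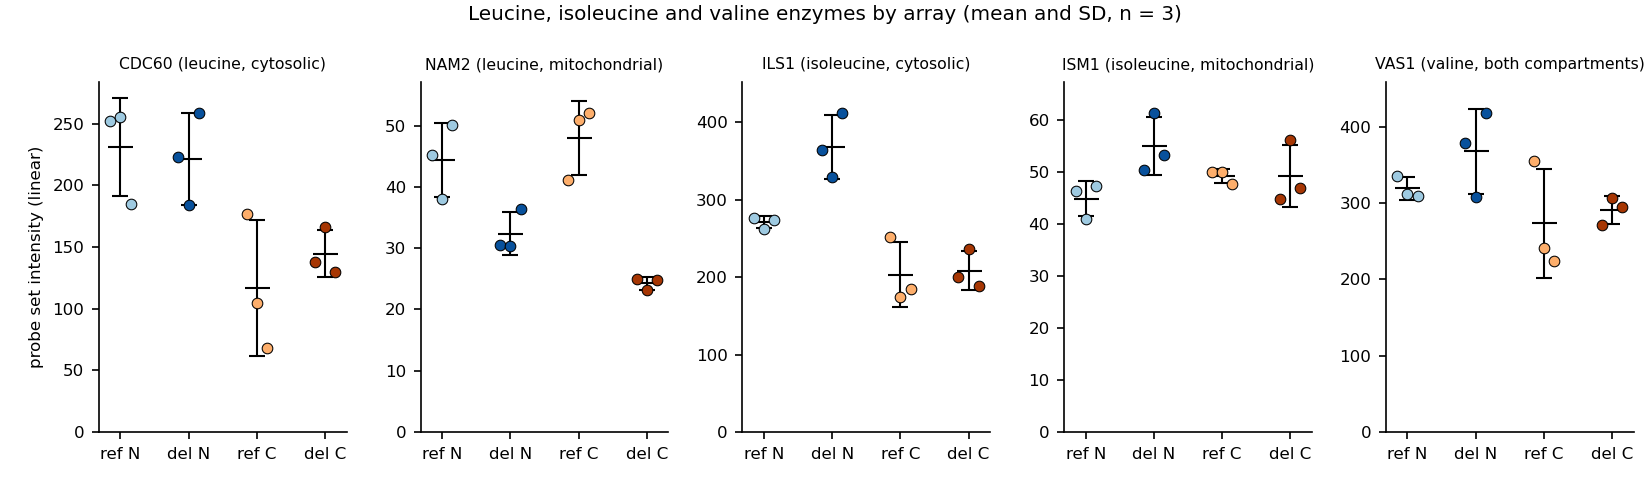
Intensity (linear axis from 0) of the leucine, isoleucine and valine enzymes on each array, by group, with the group mean and SD as bars. NAM2 is lower on every deletion array than on the reference arrays of the same limitation, and ILS1 is highest on the 3 nitrogen-limited deletion arrays.

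Under nitrogen limitation few synthetases passed the threshold between the strains as scaled by the authors. KRS1, the lysine enzyme, and MSY1, the mitochondrial tyrosine enzyme, were higher in the deletion strain and NAM2 was lower. These 3 of 31 members (9.68%) compare with 22.2% of all genes, 6.05% higher and 16.1% lower. The cytosolic members had a median difference of 0.13 and the mitochondrial members one of 0.17, beside -0.11 over all genes, and 22 of 31 members were positive where 38.2% of all genes were. Without nitrogen-limited reference arrays 2 and 3 those medians were 0.20, 0.24 and -0.09. With the arrays centred on the median 8 members were higher and none lower, beside 538 higher and 485 lower of 5321 genes. These members were DED81, DPS1, ILS1, KRS1, WRS1, ISM1, MSW1 and MSY1.

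MSY1 read 60.9, 65.8 and 72.3 in the reference and 83.8, 108.8 and 92.9 in the deletion strain. Every deletion array was higher, a 1.43-fold difference (log2 0.52 ± 0.15, adjusted p 0.0206). KRS1 read 15.7, 12 and 11.8 against 24.5, 18.8 and 19.7, also without overlap (0.67 ± 0.20, adjusted p 0.0262), but 2 of its 3 reference values are not above the floor of 12, so the size depends on the floor. With log2(intensity + 16) it was 0.34 (adjusted p 0.0701), and at a floor of 25 the gene was not tested. The KRS1 call ended without reference array 2 or 3 or deletion array 1 or 3 (0.55 to 0.71), and that of MSY1 without reference array 1 or deletion array 2 or 3 (0.41 to 0.53). Without nitrogen-limited reference arrays 2 and 3 the sizes were 0.41 and 0.64, neither past the threshold.

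By overlap of arrays 12 members were wholly higher in the nitrogen-limited deletion cultures and 2 wholly lower, against 13.9% and 29.8% of all genes. Among the cytosolic members these were DED81, DPS1, HTS1, ILS1, KRS1, MES1, TYS1 and WRS1, and among the mitochondrial members ISM1, MST1, MSW1 and MSY1. The lower ones were ALA1 and NAM2. WRS1, for example, read 369.8, 455.8 and 444.7 in the reference and 638.2, 614.1 and 581.7 in the deletion strain, with a difference of 0.53 (95% interval 0.13 to 0.94) and an adjusted p of 0.0572.

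Under carbon limitation the strains differed in 7 mitochondrial and 3 cytosolic enzymes. Among the mitochondrial enzymes MSY1, MSW1, MSF1, MST1 and MSD1 were higher in the deletion strain, and NAM2 and SLM5 lower. Among the cytosolic enzymes WRS1 and HTS1, the histidine enzyme of both compartments, were higher and GUS1, the glutamate enzyme, was lower. Of the 13 mitochondrial members 7 passed (53.8%) and of the 18 cytosolic members 3 (16.7%), beside 28.1% of all genes, 17.4% higher and 10.7% lower. The mitochondrial median was 0.31, the cytosolic median 0.02 and that of all genes 0.05. Without carbon-limited reference arrays 2 and 3 they were 0.23, -0.28 and 0.02, and with the actin ratio as a covariate 0.19, -0.37 and 0.01, so the sign of the cytosolic median is not settled. The difference between the lists was not tested.

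MSY1 read 59.9, 67.1 and 57.6 in the reference and 97.0, 101.6 and 119.0 in the deletion strain, a 1.72-fold difference with no overlap (log2 0.78 ± 0.15, adjusted p 0.00184). MSW1, the mitochondrial tryptophan enzyme, read 28.8, 19.4 and 22.2 against 37.8, 34.2 and 39.1, again all higher (0.68 ± 0.17, adjusted p 0.00888). SLM5 read 60.7, 62.0 and 71.6 against 42.7, 38.2 and 47.0, all lower (-0.60 ± 0.17, adjusted p 0.0174). By overlap, 7 mitochondrial members were wholly higher and 2 wholly lower, against 2 and 1 of the cytosolic members. Over all genes the shares were 23.5% and 16.2%.

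GUS1 read 744.6, 888.1 and 839.9 in the reference and 560.5, 603.7 and 539.3 in the deletion strain, lower on every deletion array (-0.54 ± 0.14, adjusted p 0.0124). WRS1 read 371.9, 279.6 and 197.4 against 475.7, 410.8 and 409.6, all higher (0.65 ± 0.19, adjusted p 0.02). HTS1 read 429.1, 280.1 and 317.5 against 509.7, 449.0 and 478.1, with no overlap (0.51 ± 0.16, adjusted p 0.0251). In both WRS1 and HTS1 carbon-limited reference array 1 was nearest to the deletion arrays. MST1, the mitochondrial threonine enzyme, read 57.3, 31.4 and 35 against 57.3, 54.6 and 59.8, so that reference array 1 lay among the deletion arrays and arrays 2 and 3 below them (0.52 ± 0.19, adjusted p 0.0475).

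In the carbon-limited strain comparison, leaving out reference arrays 2 and 3 leaves 1 array in that group. Calls were then lost over all genes, so member calls are not counted there. The differences of MST1 and WRS1 became -0.00267 and 0.21. The actin ratio moves with this comparison, and with it as a covariate no member passed and 54 genes did in all, where 1494 had passed. Leaving out single arrays ended the calls of HTS1 (reference 2 or 3, deletion 1 or 3; 0.37 to 0.51), WRS1 (reference 3 or deletion 1; 0.42 and 0.58), MSD1 (reference 2, deletion 1 or 3; 0.35 to 0.43), MSF1 (deletion 1 or 2; 0.48 to 0.49), SLM5 (reference 3 or deletion 2; -0.53) and MST1 (any of the 12 arrays but carbon-limited reference 1; 0.35 to 0.56). With centred arrays the split was 0 higher and 3 lower among cytosolic members, and 2 higher and 3 lower among mitochondrial ones, with medians of -0.14 and 0.14. Over all 5321 genes the centred counts were 539 higher and 996 lower, with a median of -0.12.

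**Figure D5:**
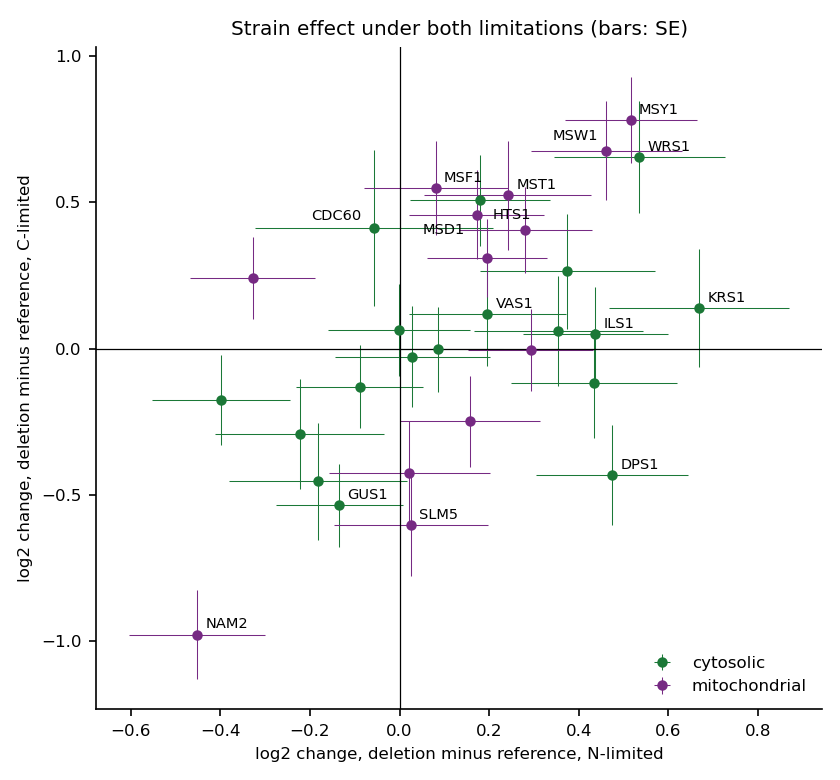
Each point is a synthetase, with its log2 strain difference (deletion minus reference) under nitrogen limitation on the horizontal axis and under carbon limitation on the vertical axis, and standard errors as bars. NAM2 lies lowest on the vertical axis and MSY1 highest, and DPS1 is at 0.47 and -0.43.

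The test of whether the strain difference depended on the limitation was passed by DPS1 alone among the members, beside 18.3% of all genes (5.24% higher and 13.1% lower). DPS1 encodes the cytosolic aspartate enzyme. It read 720.5, 596.7 and 697.0 in the reference and 883.2, 964.9 and 942.0 in the deletion strain under nitrogen limitation, and 1066.1, 1224.0 and 750.0 against 767.4, 674.6 and 769.3 under carbon limitation. The deletion arrays were all higher in the first case, and in the second the groups overlapped only through reference array 3. The strain difference was thus 0.47 under nitrogen limitation and -0.43 under carbon limitation, neither past the threshold alone, and their difference was 0.91 ± 0.24 (adjusted p 0.0182). The call ended without carbon-limited deletion array 2 (0.84, adjusted p 0.0503) and without nitrogen-limited reference arrays 2 and 3 (0.80, adjusted p 0.111). With arrays centred on the median 8 members passed, all higher, beside 614 higher and 241 lower of 5321 genes. They were DED81, DPS1, GUS1, ILS1, ISM1, MSM1, NAM2 and SLM5.

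Of the 31 members 20 (64.5%) passed in at least 1 of the 5 contrasts, beside 70.8% of all genes. The 11 that never passed were FRS1, GLN4, GRS1, SES1, THS1, TYS1 and VAS1 of the cytosol and ISM1, MSE1, MSK1 and MSM1 of the mitochondrion. Split by structural class, the 15 class I enzymes had 3 higher and 1 lower in the limitation comparison of the deletion strain and the 16 class II enzymes 2 higher and 3 lower, beside 18.1% and 17.8% of all genes. In the reference the counts were 4 and 0 for class I and 2 and 3 for class II, beside 32.6% and 14.9%. With centred arrays they were 2 and 3 for class I and 0 and 6 for class II, beside 951 and 1370 of 5321 genes.

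Other genes of transfer RNA charging included larger changes than those of the members. YHR020W, a probable proline enzyme, read 295.2, 453.3 and 227.1 in nitrogen-limited reference cultures and 668.0, 602.1 and 688.3 in nitrogen-limited deletion cultures, all deletion arrays higher (log2 1.06 ± 0.22, adjusted p 0.00264). In the deletion strain it rose 2.58-fold under nitrogen limitation from 209.0, 261.8 and 293.7 (log2 1.37 ± 0.22, adjusted p 0.000143). YDR341C, the cytosolic arginine enzyme, read 837.3, 1001.3 and 816.2 against 1395.6, 1268.6 and 1370.6 in the nitrogen-limited strains, again without overlap (0.61 ± 0.14, adjusted p 0.00646). These calls of YHR020W and YDR341C held under all 23 alternatives.

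GRS2, a second glycine enzyme gene beside GRS1, was lower in the nitrogen-limited deletion strain, at 86.5, 89.6 and 82.5 against 120.9, 122.9 and 131.1 (-0.54 ± 0.12, adjusted p 0.00606). Under carbon limitation its difference was 0.18, and the dependence on limitation passed (-0.72 ± 0.17, adjusted p 0.0118). GRS2 also rose under nitrogen limitation in the reference (0.38, adjusted p 0.0193) and fell in the deletion strain (-0.33, adjusted p 0.0456). Centring the arrays ended these calls except the nitrogen-limited strain difference, at -0.41 for the interaction, 0.11 for the reference and -0.29 for the deletion strain. Leaving out nitrogen-limited reference array 3 ended both limitation calls (0.35 and -0.33), and in the deletion strain the same held for nitrogen-limited reference array 1 or any of the strain's own arrays (-0.37 to -0.30). Without nitrogen-limited reference arrays 2 and 3 none of the GRS2 calls passed, at -0.49 for the strain difference and -0.67 for the interaction. The call in the reference also ended without carbon-limited arrays 2 and 3 (0.375, adjusted p 0.0823).

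ARC1, the cofactor that holds MES1 and GUS1 in a complex, rose under nitrogen limitation in the reference (0.57 ± 0.15, adjusted p 0.00603), and by 0.33 without carbon-limited arrays 2 and 3, when it did not pass. GUS1 had a change of -0.13 there (95% interval -0.43 to 0.17), while MES1 had one of 0.94. CRS1, the cysteine enzyme, rose in the same comparison (0.76 ± 0.19, adjusted p 0.00496) and in carbon-limited cultures it was higher in the deletion strain (0.59, adjusted p 0.0341). Without carbon-limited reference arrays 2 and 3 these were 0.35 and 0.18 and neither passed, and the strain difference was also lost without reference array 2 or 3 or deletion array 1 or 3 (0.42 to 0.61). Of the 11 other charging genes 10 were tested, since FMT1 lay below the filter.

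GCN2 encodes the kinase that senses uncharged transfer RNA, and GCN4 the activator whose translation that kinase raises. GCN4 passed in no comparison, with changes between -0.31 and 0.15. Its limitation effect in the reference (-0.31, adjusted p 0.0621) passed under 6 alternatives, among them centred arrays (-0.58, adjusted p 0.00229) and no filter (adjusted p 0.0109). With quantile normalization that change had the opposite sign, 0.10 (adjusted p 0.582), so its direction depends on the scaling. GCN2 was lower in the nitrogen-limited deletion strain (-0.84, adjusted p 0.00908) and higher under nitrogen limitation in the reference (1.00, adjusted p 0.00106), at intensities between 16.6 and 43.9, and it passed the interaction test (-1.09, adjusted p 0.0185). Without nitrogen-limited reference arrays 2 and 3 the reference call of GCN2 held (1.12, adjusted p 0.0199) and the others did not (-0.96 and -1.21, adjusted p 0.0665 and 0.0698). Without carbon-limited reference arrays 2 and 3 the strain call held and the others did not (0.69 and -0.78, adjusted p 0.0767 and 0.143), and the interaction call also ended with centred arrays (-0.78) and without carbon-limited deletion array 2 (-0.90).

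The genes of the ribosomes, which use what the synthetases make, are given for comparison as counts and medians. In the deletion strain 23 of 80 cytosolic ribosomal protein genes rose under nitrogen limitation and 1 fell (18.1% and 17.8% of all genes did), with a median of 0.25 beside 0.33 for the cytosolic synthetases. There 18 of 56 mitochondrial ribosomal protein genes fell and 1 rose, with a median of -0.23 beside -0.10 for the mitochondrial synthetases. In the reference 2 cytosolic ribosomal protein genes were higher and 23 lower (32.6% and 14.9% of all genes), with a median of -0.26 beside 0.20 for the cytosolic synthetases. With centred arrays the counts were 0 and 52, beside 951 and 1370 of 5321 genes, and the medians -0.53 and -0.07, both negative. Under carbon limitation 21 mitochondrial ribosomal protein genes were higher in the deletion strain and 2 lower (median 0.33 beside 0.31 for the mitochondrial synthetases), and 2 cytosolic ones were higher and 23 lower (median -0.29 beside 0.02), beside 17.4% and 10.7% of all genes. With centred arrays these counts were 11 and 4 for the mitochondrial and 2 and 41 for the cytosolic ones, beside 539 and 996 of 5321 genes. Without carbon-limited reference arrays 2 and 3 the median of the cytosolic ribosomal proteins in the reference was -0.25. In the carbon-limited strain comparison the medians were then 0.40 for the mitochondrial and -0.25 for the cytosolic ones. No test was made between these lists.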

How the data were processed

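The authors deposited linear probe set intensity for 12 Affymetrix arrays, scaled to a common trimmed mean (2% cut at each end, found from the values). The sources used here do not give the software or detection calls behind these deposited intensity values. Of 9335 probe sets, 6504 carry 1 gene, 328 several and 2503 none; the brightest single-gene probe set stood for a gene. Here intensities under 12 were raised to 12 before taking log2, genes needed more than 12 on 3 or more arrays (5321 genes), and 4 group means were fitted over all genes in limma 3.58.1 (R 4.3.3) with 8 residual degrees of freedom. Tests were two-sided, adjusted over all tested genes by Benjamini-Hochberg, and passed under 0.05. Errors of changes are standard errors, intervals are 95% and unadjusted. The labels do not say that arrays of a group are separate cultures, so p-values measure the spread between arrays, whose number limits the precision. Same-numbered arrays did not deviate together, so numbers only name arrays. Code was tested on simulated data.

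Groups follow the sample titles. The members and lists were chosen with earlier results of these data known. Every member could be named, the leucine, isoleucine and valine enzymes always, and of other charging genes those that passed. There were 23 alternatives, among them another pseudocount or floor, no filter, quantile normalization, centring, array weights, a replicate block, the actin ratio as covariate and arrays left out. Promoter and protein sequences were not used here.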

Additional observations from a re-analysis of the deposited data

Results flagged for a closer look

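The strain difference of DPS1, the cytosolic aspartate enzyme, depended on the limitation by the interaction test: it was 0.47 under nitrogen limitation and -0.43 under carbon limitation, a difference of 0.906 on the log2 scale (adjusted p 0.0182). That of GRS2, the second glycine enzyme gene, did so in the opposite direction, with strain differences of -0.54 and 0.18 and an interaction of -0.715 (adjusted p 0.0118). No group has enough arrays for a test of single outlying samples.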

How the results depend on the processing

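Of the 32 calls of synthetases over the 5 contrasts, 3 held under all 23 alternatives and 29 were lost under at least 1. The number of arrays, 3 per group, limits the precision, and low signals such as that of KRS1 lie near the floor. In the order cytosolic and mitochondrial, leaving out single arrays gave 0 to 5 and 0 to 3 calls for the strain effect under nitrogen limitation (1 and 2 with all arrays), 1 to 4 and 4 to 8 under carbon limitation (3 and 7), 0 to 2 and 0 to 2 for the interaction (1 and 0), 3 to 9 and 1 to 2 for the limitation effect in the reference (7 and 2), and 2 to 7 and 1 to 5 in the deletion strain (4 and 5). Over all 5321 genes the calls moved too. They ranged from 793 to 1389 and from 1004 to 1852 for the strain effects under nitrogen and carbon limitation. The ranges were 653 to 1411 for the interaction, and 2148 to 2716 and 1436 to 2097 for the limitation effects in the reference and the deletion strain.

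Fits that leave 1 array in a group are not counted here. For the strain effect under nitrogen limitation the cytosolic count became 3 with log2(intensity + 16), 0 with a floor of 25, no filter or the actin covariate, 4 with quantile normalization, 5 with centring and 6 with array weights. The mitochondrial count became 1 with log2(intensity + 16) or the actin covariate and 4 with array weights. Under carbon limitation both counts became 0 with the actin covariate, when 54 of 5321 genes passed in all. The cytosolic interaction count became 4 with centring and 2 with array weights. The mitochondrial one became 1 with a floor of 25, no filter or array weights, and 4 with quantile normalization or centring. Of 5321 genes, 1181 passed for the strain effect under nitrogen limitation. That number was 1059 with quantile normalization, 1023 with centring, 2000 with array weights and 1064 with the actin covariate. For the interaction 976 genes passed, 704 with quantile normalization, 855 with centring and 1465 with array weights.

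For the limitation effect in the reference the cytosolic count became 1 with the actin covariate. The mitochondrial count became 1 with log2(intensity + 16) or array weights, 7 with quantile normalization, 6 with centring, and 0 with the actin covariate. In the deletion strain the cytosolic count became 8 with quantile normalization and 13 with array weights, and the mitochondrial count 3 with quantile normalization. Of 5321 genes, 1907 passed in the deletion strain, 1934 with quantile normalization and 2788 with array weights. In the reference 2532 genes passed, 2175 with quantile normalization, 2321 with centring, 2442 with array weights and 1289 with the actin covariate. Carbon-limited strain differences reversed with the actin covariate for WRS1 (-0.0816), MST1 (-0.267) and CRS1 (-0.0674), and for MST1 without carbon-limited reference arrays 2 and 3 (-0.00267). The cause of these changes was not tested.

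The replicate numbers did not pair the arrays: 2 of 18 same-numbered pairs had a correlation of deviations over 0.1 (range -0.31 to 0.16). In 2 of the 18 an array correlated better with the same number of the other group than with that group's other numbers. With the replicate block the mitochondrial counts became 1 for the strain effect under nitrogen limitation, 1 for the limitation effect in the reference and 3 in the deletion strain.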
